A study of Homo sapiens with 55 samples.

Results

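The 7 genes described here, GAS5, SNHG1, SNHG5, SNHG12, SNHG16, SNHG8 and ZFAS1, make long noncoding RNAs whose introns carry small nucleolar RNAs (snoRNAs). Their splicing events were taken as every event in the deposited tables that lay within the span of 1 of these genes on its strand (hg19), without use of any measured value. There were 74 such events among 110816: 22 in GAS5, 21 in SNHG1, 9 in SNHG5, 8 in SNHG12, 7 in ZFAS1, 4 in SNHG16 and 3 in SNHG8. By type they were 22 skipped exons, 21 retained introns, 15 alternative 5′ splice sites, 14 alternative 3′ splice sites and 2 mutually exclusive exons. Many of them share junctions, so events of 1 gene are not independent of each other.

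The RNA-seq libraries came from K562, a human chronic myeloid leukaemia line, and from 293T, a human embryonic kidney line. In the SRSF2 panel, K562 cells overexpressed SRSF2 P95H or wild-type (WT) SRSF2, each with a CRISPR guide against GPATCH8 or against Renilla luciferase (the nontargeting control), in 3 libraries per group. The U2AF1 panel had the same layout with U2AF1 S34F or WT. In the SF3B1 panel, K562 cells with an SF3B1 K700E knock-in or WT SF3B1 received guides against GPATCH8 (2 libraries per genotype), SUGP1 (2 per genotype) or Renilla (1 per genotype). By their deposited names, the 2 libraries of a targeted gene there carried different guides, with 1 library per guide. The 293T panel had 4 sgGPATCH8, 4 sgSUGP1 and 2 sgRenilla libraries. By their deposited names, each targeted gene in 293T had 2 guides, with 2 libraries per guide. SRSF2, U2AF1 and SF3B1 are splicing factors mutated in myeloid cancers, while GPATCH8 and SUGP1 are G-patch proteins of the splicing machinery. The labels do not say whether the libraries of a group came from separate cultures, so p-values measure the spread between these libraries, which may be technical. In the SF3B1 panel that spread includes the difference between guides. In 293T the labels name the targeted libraries WT-1 and WT-2 but the controls WT-1 only. They do not say whether these names mark cells or guides, so some 293T libraries may lack a control of their own. The 2 sequencing runs given for each SF3B1 library were averaged, and the labels do not say whether they are repeats of 1 library. The tables hold isoform fractions and no expression levels, so the loss of GPATCH8 or SUGP1 and the identity of the lines could not be checked in them. The number of reads behind each fraction is unknown.

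A snoRNA host gene is transcribed by RNA polymerase II and spliced. The intron lariat is then debranched and trimmed to the mature snoRNA, which guides modification of ribosomal RNA: box C/D snoRNAs (SNORD) direct 2′-O-methylation and box H/ACA snoRNAs (SNORA) direct pseudouridylation. The joined exons of several of these hosts, GAS5 and SNHG1 among them, have little coding potential and are known substrates of nonsense-mediated decay (NMD), which is coupled to translation. GAS5 RNA is also known for its accumulation in growth-arrested cells.

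RefSeq places a snoRNA inside 18 of the 20 retained-intron events that could be tested in the SRSF2 panel. Some of those called below are shown, so that the snoRNA can be seen within its intron and beside the intron that lacks one. They are written 5′ to 3′ on the gene's strand, in lower case with the snoRNA in capitals. The letters were read from GENCODE 29 transcripts that keep the intron (GRCh38), and the snoRNA bounds come from RefSeq.
GAS5 SNORD79 intron, chr1:173865283-173865470, minus strand, 188 nt: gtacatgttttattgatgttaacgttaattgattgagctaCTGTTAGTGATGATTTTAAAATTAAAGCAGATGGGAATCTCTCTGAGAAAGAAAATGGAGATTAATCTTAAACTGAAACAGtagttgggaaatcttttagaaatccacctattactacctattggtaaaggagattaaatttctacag
GAS5 SNORD44 intron, chr1:173865895-173866176, minus strand, 282 nt: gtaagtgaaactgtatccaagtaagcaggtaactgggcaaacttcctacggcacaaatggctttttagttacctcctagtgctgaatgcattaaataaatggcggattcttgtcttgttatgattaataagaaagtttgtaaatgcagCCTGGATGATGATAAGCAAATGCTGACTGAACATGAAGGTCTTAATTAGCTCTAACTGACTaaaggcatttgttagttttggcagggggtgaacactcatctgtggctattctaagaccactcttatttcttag
GAS5 SNORD76 intron, chr1:173866568-173866760, minus strand, 193 nt: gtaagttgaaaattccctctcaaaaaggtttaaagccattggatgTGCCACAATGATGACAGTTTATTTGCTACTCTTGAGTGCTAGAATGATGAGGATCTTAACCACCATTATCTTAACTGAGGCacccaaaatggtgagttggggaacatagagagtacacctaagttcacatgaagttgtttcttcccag
GAS5 SNORD47 intron, chr1:173864305-173864483, minus strand, 179 nt: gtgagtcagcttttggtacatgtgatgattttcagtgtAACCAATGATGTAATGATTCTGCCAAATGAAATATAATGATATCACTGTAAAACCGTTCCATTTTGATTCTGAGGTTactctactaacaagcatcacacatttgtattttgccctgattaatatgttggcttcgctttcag
GAS5 intron without a snoRNA, chr1:173864507-173864674, minus strand, 168 nt: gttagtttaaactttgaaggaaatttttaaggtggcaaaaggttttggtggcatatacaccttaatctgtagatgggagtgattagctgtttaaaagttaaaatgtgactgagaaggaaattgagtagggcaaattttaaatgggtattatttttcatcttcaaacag
SNHG1 SNORD27 intron, chr11:62854939-62855132, minus strand, 194 nt: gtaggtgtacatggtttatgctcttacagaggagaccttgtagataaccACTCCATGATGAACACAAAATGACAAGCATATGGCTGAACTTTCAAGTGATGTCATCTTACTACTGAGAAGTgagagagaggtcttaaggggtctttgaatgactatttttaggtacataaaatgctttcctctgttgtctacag
SNHG1 SNORD22 intron, chr11:62852840-62853074, minus strand, 235 nt: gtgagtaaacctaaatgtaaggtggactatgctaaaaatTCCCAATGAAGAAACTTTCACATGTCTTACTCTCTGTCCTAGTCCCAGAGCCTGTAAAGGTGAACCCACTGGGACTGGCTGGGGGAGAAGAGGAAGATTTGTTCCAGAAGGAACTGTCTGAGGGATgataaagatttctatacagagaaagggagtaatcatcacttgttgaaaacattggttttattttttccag
SNHG1 SNORD29 intron to the far acceptor, chr11:62853834-62854017, minus strand, 184 nt: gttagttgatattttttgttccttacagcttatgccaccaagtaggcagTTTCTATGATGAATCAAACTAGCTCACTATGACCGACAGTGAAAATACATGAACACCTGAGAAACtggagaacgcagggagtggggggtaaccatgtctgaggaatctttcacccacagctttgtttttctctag
SNHG1 SNORD29 intron to the near acceptor, chr11:62853850-62854017, minus strand, 168 nt: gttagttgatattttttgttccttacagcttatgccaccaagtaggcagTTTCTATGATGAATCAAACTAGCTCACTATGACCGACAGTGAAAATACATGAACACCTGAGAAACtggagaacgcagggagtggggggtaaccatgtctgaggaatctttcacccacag
The last pair differ only in the acceptor, which lies 16 nt apart. The SNORD47 intron and the 168 nt intron of GAS5 are parted by a 23 nt exon, and a 370 nt intron that skips this exon spans both of them.

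For each event the fraction of the isoform listed first was analysed, here given as a percentage. For a retained intron this is the spliced isoform, and for a skipped exon it is the isoform with the exon. Fractions were compared with limma on a log2 ratio scale, log2 of (fraction + 0.01)/(1 − fraction + 0.01). An event was called when its Benjamini-Hochberg adjusted p was under 0.05 over all events tested and the group means differed by at least 5 percentage points. An event was tested when every library of the panel had a value and the group means reached at least 5% in some group and at most 95% in some group. Of the 74 events, 56 could be tested in some panel: 16 of 22 in GAS5, 19 of 21 in SNHG1, all 8 in SNHG12, 5 of 7 in ZFAS1, 3 of 9 in SNHG5, 3 of 4 in SNHG16 and 2 of 3 in SNHG8. In all, 26 were called in some comparison, of which 10 were in SNHG1, 9 in GAS5, 3 in SNHG12, 2 in SNHG16 and 2 in SNHG8, and none in SNHG5 or ZFAS1. The remaining 18 of the 74 did not meet these limits in any panel, and 1 of them had no value in any library.

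Libraries of the U2AF1 panel numbered 1 stood apart from those numbered 2 and 3 in all 4 groups. Across these genes, 24 of the 46 events tested there had all 4 libraries numbered 1 outside the range of the other 8, against 6.37% of all 43415 events. Of the 20 retained introns, 17 were spliced less in all 4 libraries numbered 1, against 4.78% of all 3643 retained introns. Results in that panel are given with this in view.

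Loss of GPATCH8 in cells with SRSF2 P95H was the comparison in which these genes changed most. In P95H cells, sgGPATCH8 against sgRenilla, 22 of the 46 events tested were called, 17 lower and 5 higher, against 4.84% of all 43933 events. Their median difference was −4.0 percentage points, beside −0.33 over all events. The called events were 9 of 15 in GAS5, 9 of 14 in SNHG1, 2 of 8 in SNHG12 and 2 of 2 in SNHG8. None of the 2 events of SNHG16, 2 of SNHG5 and 3 of ZFAS1 tested was called in it. Leaving out any 1 of the 6 libraries gave between 17 and 21 called events.

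Retained introns made up most of these calls. Of 20 tested, 14 fell in their spliced share and 1 rose, against 4.83% of all 3728 retained introns called with less splicing. The median difference was −7.83 points for these 20 introns and −0.67 for all retained introns. In GAS5, 7 of 10 introns fell and in SNHG1 6 of 6. The mean spliced share over these 20 introns was 65.7, 64.9 and 64.7% in P95H sgGPATCH8 libraries, against 73.6, 74.8 and 74.3% in P95H sgRenilla libraries. Over all 3728 retained introns it was 69.1, 68.1 and 68.0% in P95H sgGPATCH8 libraries, against 69.1, 69.6 and 69.4% in P95H sgRenilla libraries. The mean over these 20 introns thus separated the groups, while the mean over all retained introns differed little between them.

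In GAS5, the 370 nt intron that spans SNORD47 and skips the 23 nt exon (hg19 chr1:173833443-173833812, minus strand) was spliced in 62, 60 and 59% in P95H sgGPATCH8 libraries, against 81, 82 and 83% in P95H sgRenilla libraries. The groups did not overlap, and the difference was −21.7 points (log2 change −1.54 ± 0.15 SE, limma adjusted p = 0.000511). This event sets the 370 nt splice against retention only. Set against its skipping, the 23 nt exon was included in 97, 96 and 97% in P95H sgGPATCH8 libraries and 98, 97 and 98% in P95H sgRenilla libraries. The 370 nt splice was thus a minor form. The SNORD79 intron (hg19 chr1:173834421-173834608) was spliced in 60, 58 and 60% in P95H sgGPATCH8 libraries, against 77, 78 and 77% in P95H sgRenilla libraries. The groups again did not overlap (−18.0 points, log2 change −1.19 ± 0.13 SE, limma adjusted p = 0.00103). The SNORD44 intron was spliced in 75, 74 and 74% in P95H sgGPATCH8 libraries, against 86, 86 and 87% in P95H sgRenilla libraries (−12.0 points, limma adjusted p = 0.00291). The SNORD80 intron, 524 nt long, was spliced in 80, 78 and 80% in P95H sgGPATCH8 libraries, against 91% in each P95H sgRenilla library (−11.7 points, limma adjusted p = 0.00136). Both introns kept their groups apart by more than the spread within either group.

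The SNORD76 intron of GAS5 fell by 7.67 points (limma adjusted p = 0.0194), with a mean of 81.0 ± 1.0% in P95H sgGPATCH8 libraries, against 88.7 ± 0.58% in P95H sgRenilla libraries (SD, n = 3 each). The 2 introns on either side of the 23 nt exon fell as well. The 168 nt intron, which holds no snoRNA, was spliced in 86% in each P95H sgGPATCH8 library, against 94% in each P95H sgRenilla library (−8.0 points, limma adjusted p = 0.00385). The SNORD47 intron averaged 88.3 ± 0.58% in P95H sgGPATCH8 libraries, against 94.7 ± 0.58% in P95H sgRenilla libraries (SD, n = 3 each; −6.33 points, limma adjusted p = 0.00599). The groups did not overlap for either intron, with or without a snoRNA. The remaining 3 GAS5 introns, with SNORD75, SNORD77 and SNORD79 in its longer intron, differed by −3.0 to −4.33 points, under the 5-point minimum.

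In SNHG1, the 454 nt intron (hg19 chr11:62621537-62621990, minus strand), which holds a snoRNA that RefSeq lists as LOC124900306, was spliced in 48, 49 and 46% in P95H sgGPATCH8 libraries, against 62, 65 and 66% in P95H sgRenilla libraries. The difference was −16.7 points (log2 change −0.97 ± 0.13 SE, limma adjusted p = 0.0038), with no overlap. The SNORD27 intron was spliced in 76, 74 and 76% in P95H sgGPATCH8 libraries, against 85, 88 and 87% in P95H sgRenilla libraries (−11.3 points, limma adjusted p = 0.00867). The SNORD22 intron was spliced in 71, 68 and 70% in P95H sgGPATCH8 libraries, against 80, 81 and 80% in P95H sgRenilla libraries (−10.7 points, limma adjusted p = 0.0147). The SNORD31 intron fell by 6.33 points (limma adjusted p = 0.0107). The 454 nt and the 194 nt introns both fell by more than the 436 nt one.

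The SNORD29 intron of SNHG1 has the pair of acceptors printed above. Splicing to the far acceptor fell by 7.0 points, to 79.0 ± 2.0% in P95H sgGPATCH8 libraries, against 86.0 ± 1.0% in P95H sgRenilla libraries (SD, n = 3 each; limma adjusted p = 0.0465). The event that sets splicing to the near acceptor against retention gave 5, 5 and 2% in P95H sgGPATCH8 libraries, against 32, 40 and 40% in P95H sgRenilla libraries. The difference was −33.3 points, with no overlap (log2 change −3.61 ± 0.44 SE, limma adjusted p = 0.00223). In WT SRSF2 it gave 9, 28 and 17% in sgGPATCH8 libraries, against 31, 32 and 39% in sgRenilla libraries, and the WT sgGPATCH8 libraries themselves ranged over more than those of the other groups. Set against the far acceptor, the near one was a minor form. It was used in 3, 3 and 4% in P95H sgGPATCH8 libraries, against 3, 2 and 4% in P95H sgRenilla libraries. That choice did not reach the limit for testing.

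**Figure D1:**
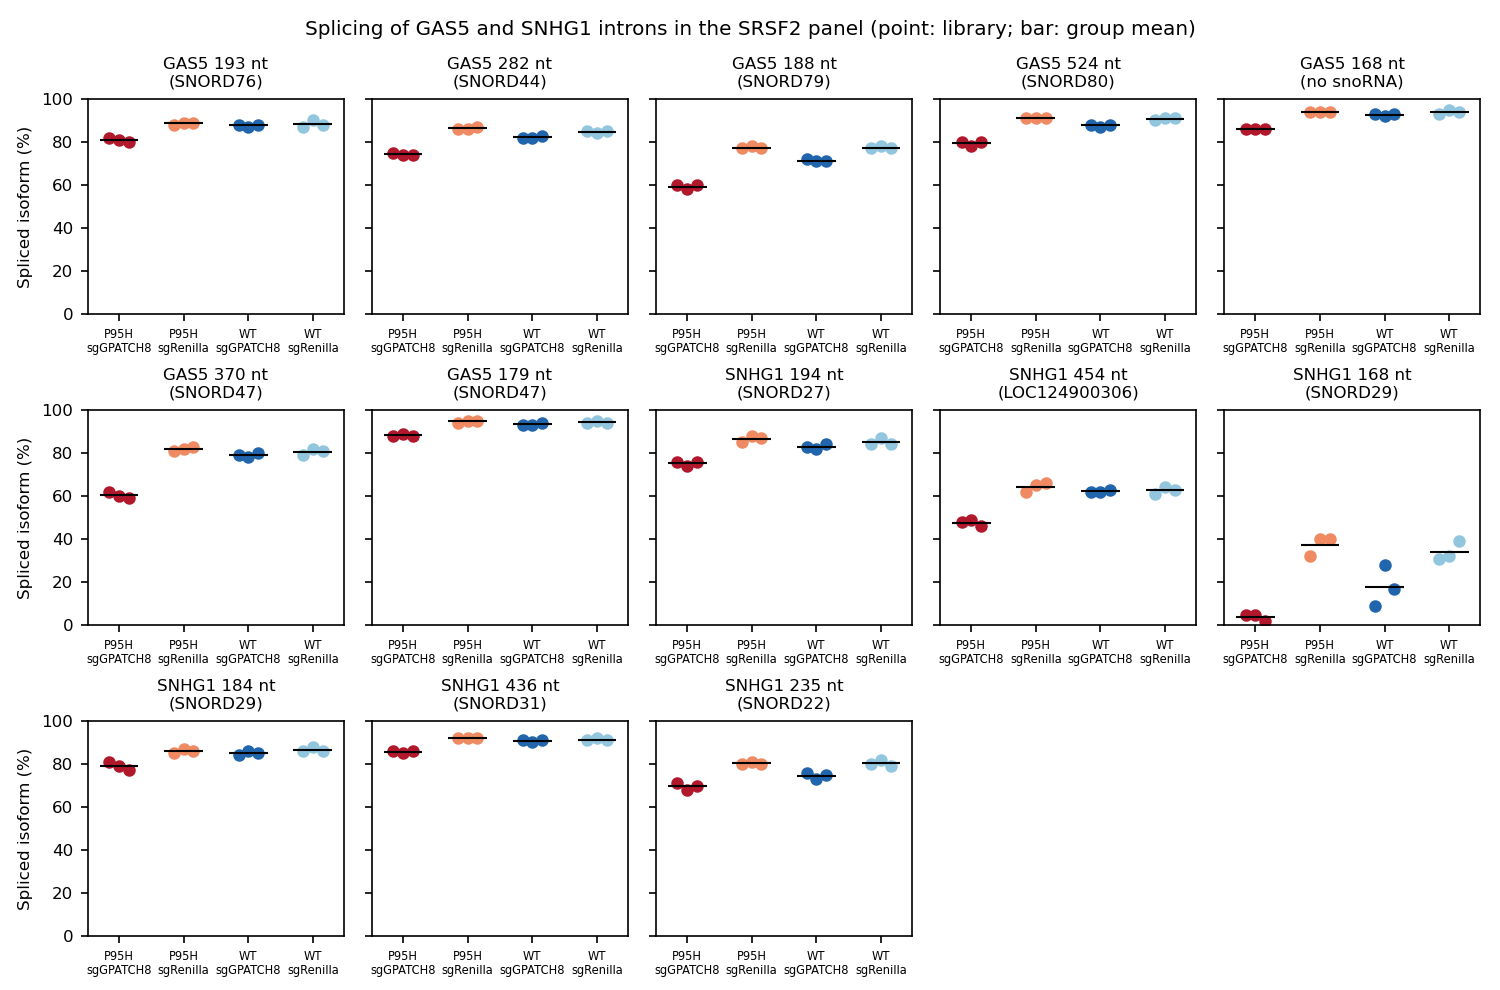
Spliced share (%, vertical axis) of the 13 GAS5 and SNHG1 introns called in P95H cells, sgGPATCH8 against sgRenilla, in the 4 groups of the SRSF2 panel; points are libraries and bars are group means. In every panel the 3 P95H sgGPATCH8 libraries lie below the 3 P95H sgRenilla libraries, with a difference of −21.7 points for the 370 nt GAS5 intron and a difference of −33.3 points for the 168 nt SNHG1 event. Both are minor spliced forms, the GAS5 one skipping an exon and the SNHG1 one using the near SNORD29 acceptor.

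Of the other event types, 2 of 5 tested in GAS5, both alternative acceptors, and 3 of 8 tested in SNHG1 were called in this comparison. The single GAS5 exon tested was not among them. The SNHG1 exon between the SNORD27 and SNORD28 introns was included in 59, 56 and 58% in P95H sgGPATCH8 libraries, against 77, 82 and 82% in P95H sgRenilla libraries. It fell by 22.7 points with no overlap (log2 change −1.55 ± 0.17 SE, limma adjusted p = 0.00109). From the donor before SNORD27, the acceptor after SNORD28 was preferred to the next one downstream in 14, 14 and 15% in P95H sgGPATCH8 libraries, against 9, 8 and 8% in P95H sgRenilla libraries (6.0 points, limma adjusted p = 0.00637). Into the acceptor after SNORD28, the near donor was preferred to the donor before SNORD27 in 52, 55 and 47% in P95H sgGPATCH8 libraries, against 36, 34 and 34% in P95H sgRenilla libraries (16.7 points, limma adjusted p = 0.0101). Set against the junction that skips the exon, the isoform with the exon therefore fell, while use of the near donor rose. Why these 2 readings went opposite ways was not tested. These 3 events share the junction that skips the exon.

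In GAS5, 2 alternative acceptor events rose. From the donor of the SNORD79 intron, the acceptor at the end of that intron, rather than the far one after SNORD47, was used in 50, 53 and 50% in P95H sgGPATCH8 libraries, against 36, 36 and 34% in P95H sgRenilla libraries (15.7 points, limma adjusted p = 0.00598). From the donor of the SNORD80 intron, the acceptor at its end, rather than that of the 23 nt exon, was used in 46, 49 and 47% in P95H sgGPATCH8 libraries, against 35, 36 and 34% in P95H sgRenilla libraries (12.3 points, limma adjusted p = 0.0146).

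SNHG12 hosts the H/ACA snoRNAs SNORA61 and SNORA44, and its introns moved in both directions. The 354 nt intron around SNORA61 (hg19 chr1:28906100-28906453, minus strand) was spliced in 25, 26 and 22% in P95H sgGPATCH8 libraries, against 38, 36 and 40% in P95H sgRenilla libraries (−13.7 points, limma adjusted p = 0.0137). The 578 nt intron around SNORA44 was spliced in 62, 61 and 62% in P95H sgGPATCH8 libraries, against 54, 53 and 47% in P95H sgRenilla libraries (10.3 points higher, limma adjusted p = 0.0487). That rise was the only 1 among the retained introns of these genes called in this comparison.

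SNHG8, host of SNORA24, was the gene with calls for GPATCH8 loss in both SRSF2 genotypes. Its exon downstream of the intron at hg19 chr4:119199948-119200098 (plus strand) was included in 11, 12 and 11% in P95H sgGPATCH8 libraries, against 22% in each P95H sgRenilla library (−10.7 points, log2 change −1.08 ± 0.12 SE, limma adjusted p = 0.00115). In WT SRSF2 it was included in 13, 13 and 14% in sgGPATCH8 libraries, against 22, 25 and 23% in sgRenilla libraries (−10 points, log2 change −0.94 ± 0.12 SE, limma adjusted p = 0.00779). Into the acceptor after SNORA24, the nearer of 2 donors was used in 11% in each P95H sgGPATCH8 library, against 18, 19 and 18% in P95H sgRenilla libraries (−7.33 points, limma adjusted p = 0.0059). In WT SRSF2 this donor was used in 12, 11 and 13% in sgGPATCH8 libraries, against 18, 20 and 19% in sgRenilla libraries (−7.0 points, limma adjusted p = 0.0312). None of these 4 pairs of groups overlapped. Both SNHG8 events are set against the same skipping junction, so they are not independent.

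These were the only 2 of 46 events called for GPATCH8 loss in WT SRSF2, against 0.492% of all events. Leaving out any 1 of the 6 libraries, which leaves 1 group with 2 libraries, left 1 call. The 20 retained introns had a median difference of −1.50 points there, with 16 below 0 and 2 above 0, while all retained introns had a median of 0.33. The SNORD79 intron of GAS5 was spliced in 72, 71 and 71% in WT sgGPATCH8 libraries, against 77, 78 and 77% in WT sgRenilla libraries, and was not called.

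P95H against WT SRSF2 within sgGPATCH8 cells shares its P95H sgGPATCH8 libraries with the comparison above, so its calls are not separate evidence. It called 15 of 46 events, 12 lower and 3 higher, against 4.07% of all events. They comprised 10 retained introns, all with less splicing, where 1.29% of all retained introns were so called. All 15 were in GAS5 (9 of 15 tested) and SNHG1 (6 of 14 tested). The 370 nt GAS5 intron averaged 60.3 ± 1.53% in P95H sgGPATCH8 libraries, against 79.0 ± 1.0% in WT sgGPATCH8 libraries (SD, n = 3 each; −18.7 points, limma adjusted p = 0.00249). Inclusion of the SNHG1 exon downstream of the 454 nt intron was 79, 80 and 79% in P95H sgGPATCH8 libraries, against 87, 85 and 88% in WT sgGPATCH8 libraries (−7.33 points, limma adjusted p = 0.0455). Leaving out any 1 of the 6 libraries gave between 3 and 7 called events.

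The P95H sgGPATCH8 libraries lay outside the range of the 9 other libraries of the panel in 26 of the 46 events, against 7.96% of all events. Of the 20 retained introns, 16 were spliced less in these 3 libraries than in any of the other 9, against 4.24% of all retained introns. The test of whether the effect of GPATCH8 loss differed between P95H and WT called none of the 46 events, and 0.0615% of all events. In it, 19 of the 46 had an unadjusted p under 0.05, and no second tool was run. The lowest adjusted p was 0.0533, for the 370 nt GAS5 intron, whose difference of differences was −20.0 points (log2 change −1.39 ± 0.21 SE, limma). The 454 nt SNHG1 intron followed, with −16.3 points and a limma adjusted p of 0.0961.

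With sgRenilla, P95H against WT called 2 of 46 events, both exons of SNHG16, against 1.08% of all events. SNHG16 hosts box C/D snoRNAs of the SNORD1 family. The exon downstream of the 1087 nt intron (hg19 chr17:74553940-74555026, plus strand) was included in 46, 39 and 42% in P95H sgRenilla libraries, against 54, 56 and 55% in WT sgRenilla libraries (−12.7 points, log2 change −0.72 ± 0.13 SE, limma adjusted p = 0.0352). The exon after the first 516 nt of the same intron was included in 5, 4 and 5% in P95H sgRenilla libraries, against 10, 9 and 10% in WT sgRenilla libraries (−5.0 points, limma adjusted p = 0.0195). Neither pair of groups overlapped, yet leaving out any 1 of the 6 libraries left no called event. With sgGPATCH8 the exon after the 1087 nt intron was included in 41, 41 and 42% in P95H libraries, against 48, 50 and 49% in WT libraries, a difference of −7.67 points that was not called (limma adjusted p = 0.0946). None of the 20 retained introns was called with sgRenilla, and their median difference was 0.33 points, beside 1.67 for all retained introns. The 370 nt GAS5 intron, for example, was spliced in 82.0 ± 1.0% in P95H sgRenilla libraries, against 80.7 ± 1.53% in WT sgRenilla libraries (SD, n = 3 each), and these groups overlapped.

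**Figure D2:**
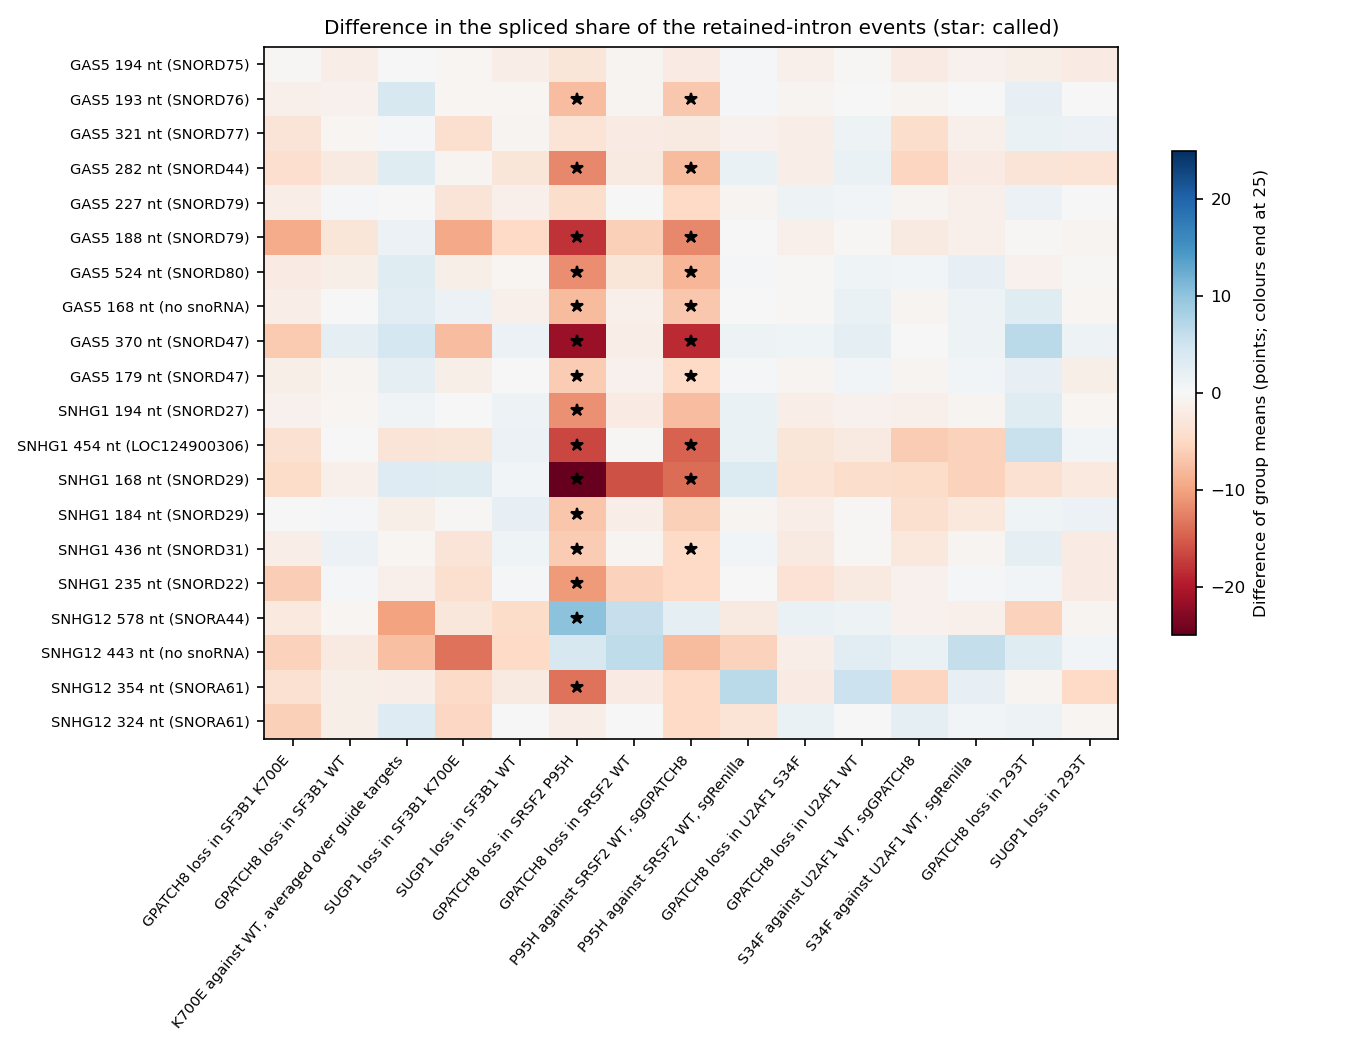
Difference of group means (percentage points, colour) in the spliced share of the 20 tested retained introns (rows, with intron length and snoRNA) in 15 comparisons (columns); red is less splicing and a star marks a called event. The stars stand in 2 columns that share the P95H sgGPATCH8 libraries, with 15 and 10 calls.

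In the U2AF1 panel no event of these genes was called in any comparison, and few events were called at all. S34F against WT called 0.0023% of all events with sgRenilla and 0.023% with sgGPATCH8, and GPATCH8 loss called 0.0322% in WT and 0.0346% in S34F. The test of the difference between these effects called 0.0% of all events. Among the 46 events tested by limma, an unadjusted p under 0.05 was reached by 4 and 6 in the S34F comparisons with sgRenilla and sgGPATCH8, and by 0 in the other 3. With the libraries numbered 1 left out, which was chosen after seeing the data, again none was called. The main fit had no term for the libraries numbered 1, so their difference added to the spread within groups. The absence of calls in that fit thus says little about whether S34F or GPATCH8 loss had an effect.

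Introns of GAS5 differed widely between libraries of 1 group in this panel. The 370 nt intron was spliced in 49, 79 and 77% in the S34F sgRenilla libraries numbered 1, 2 and 3, against 43, 77 and 81% in the WT sgRenilla libraries. With sgGPATCH8 it was spliced in 51, 77 and 80% in S34F libraries, against 50, 79 and 79% in WT libraries. The 4 libraries numbered 1 were thus at 43 to 51% and the other 8 at 77 to 81%, a mean difference of −30.4 points, beside −21.7 points for GPATCH8 loss in P95H cells. The SNORD79 intron differed by −24.1 points between the same libraries and the 454 nt SNHG1 intron by −13.9.

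Over the 46 events tested in both panels, the difference between U2AF1 libraries numbered 1 and the others had a Pearson correlation of 0.84 with the difference made by GPATCH8 loss in P95H cells. The same correlation was 0.41 over all 39089 shared events and 0.47 over the 3452 shared retained introns. This is a description across events, which share genes and junctions and are not replicates, and the 2 differences use no library in common. The median over the 20 introns was −11.9 points between U2AF1 libraries numbered 1 and the others, beside 0.50 over all retained introns. The 13 GAS5 and SNHG1 introns called in P95H cells include the 3 named here for the U2AF1 libraries. The labels give all 12 U2AF1 libraries the same sequencing run. What set the libraries numbered 1 apart was not tested, nor was its part in the SRSF2 result.

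**Figure D3:**
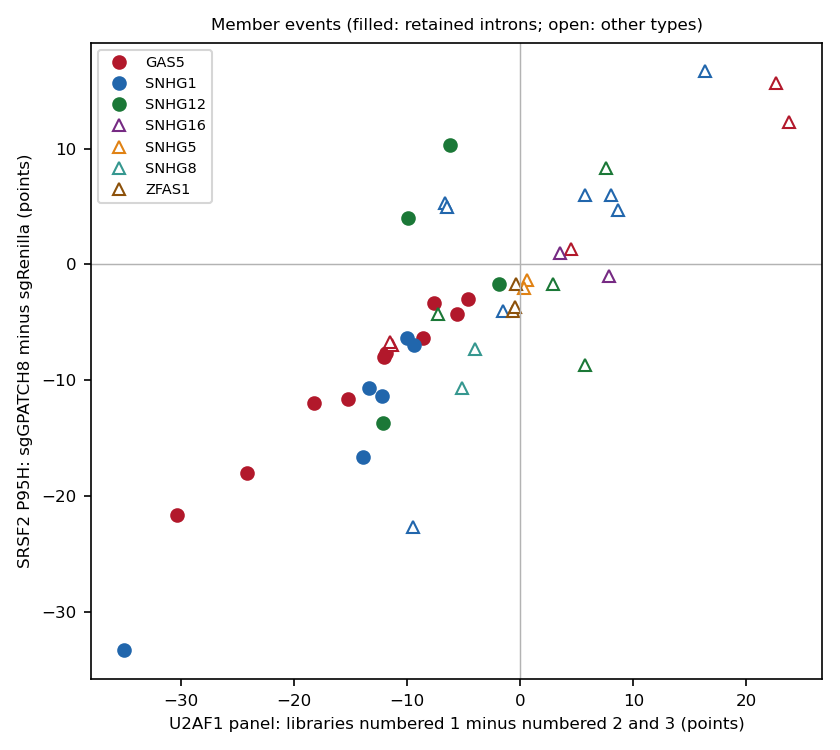
Each point is 1 of the 46 events: U2AF1 libraries numbered 1 minus those numbered 2 and 3 (horizontal, points) against sgGPATCH8 minus sgRenilla in SRSF2 P95H cells (vertical, points), coloured by gene, filled for retained introns. The 370 nt GAS5 intron, the form that skips an exon, lies at −30.4 on the horizontal and −21.7 on the vertical axis. The Pearson correlation over all points is 0.84.

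Exons of ZFAS1 and SNHG16 were lower with S34F in each of the 3 numbered sets, though neither was called. ZFAS1, a host of SNORD12 family snoRNAs, included its exon downstream of the intron at hg19 chr20:47897108-47897439 (plus strand) in 45, 44 and 45% in S34F sgRenilla libraries, against 57, 56 and 57% in WT sgRenilla libraries. The groups did not overlap at −12.0 points, and the limma adjusted p was 0.246. In sgGPATCH8 cells it was included in 46, 47 and 49% in S34F libraries, against 55, 58 and 55% in WT libraries. The SNHG16 exon downstream of the 1087 nt intron was included in 34, 27 and 27% in S34F sgRenilla libraries, against 50, 40 and 40% in WT sgRenilla libraries (−14.0 points, limma adjusted p = 0.297). With sgGPATCH8 it was included in 36, 30 and 30% in S34F libraries, against 50, 41 and 42% in WT libraries.

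In the SF3B1 panel, K700E against WT, averaged over the 3 guide targets, called 1 of 52 events, against 3.35% of all 50823 events. The event was the choice between the donors of the SNHG12 intron that holds SNORA44. They are shown because the inner donor lies inside the snoRNA, 135 nt from the outer one, with 88 nt of the 132 nt SNORA44 before it and 44 nt after it. Both lines run from a donor to the same point of the intron (GRCh38, minus strand, capitals mark SNORA44).
SNHG12 outer donor, chr1:28580360-28580559: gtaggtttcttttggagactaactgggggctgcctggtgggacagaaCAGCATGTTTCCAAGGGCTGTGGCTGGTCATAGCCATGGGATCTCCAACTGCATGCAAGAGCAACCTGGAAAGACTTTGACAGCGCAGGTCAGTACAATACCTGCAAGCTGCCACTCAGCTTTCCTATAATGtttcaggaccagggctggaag
SNHG12 inner donor, chr1:28580360-28580424: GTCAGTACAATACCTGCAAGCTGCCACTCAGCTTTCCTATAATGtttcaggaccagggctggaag
The inner donor was used in 43.5 and 47.5% in K700E sgGPATCH8, 46.0 and 43.5% in K700E sgSUGP1 and 42.0% in K700E sgRenilla libraries. In WT cells it was used in 34 and 31.5% in sgGPATCH8, 34.5 and 36.0% in sgSUGP1 and 31.0% in sgRenilla libraries. All 5 K700E libraries were above all 5 WT libraries, by 11.1 points (log2 change 0.67 ± 0.12 SE, limma adjusted p = 0.0452). The call was lost when any 1 of the 8 libraries with a targeting guide was left out and in either sequencing run alone. In the same gene, the spliced share of the full 578 nt intron differed by −10.1 points, with a limma adjusted p of 0.0553.

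**Figure D4:**
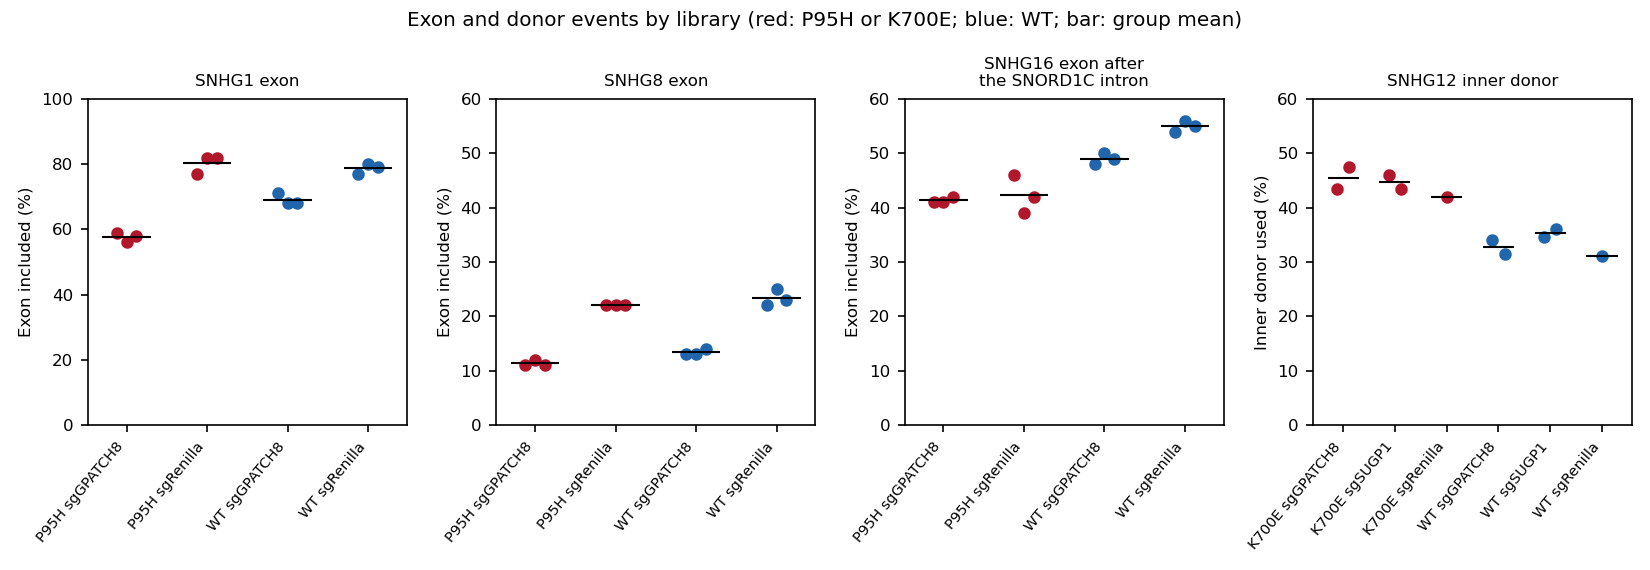
Share of the first isoform (%, vertical axis) by library for exons of SNHG1, SNHG8 and SNHG16 in the SRSF2 panel and for the inner SNHG12 donor in the SF3B1 panel, with group means as bars. SNHG8 inclusion is at 11 to 14% in both sgGPATCH8 groups, against 22 to 25% in both sgRenilla groups, and the SNHG12 donor is at 42.0 to 47.5% in K700E, against 31.0 to 36.0% in WT.

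No other SF3B1 comparison called an event of these genes. The shares of all events called were 0.0197% for SUGP1 loss in WT, 0.0944% for SUGP1 loss in K700E, 0.0059% for GPATCH8 loss in WT and 0.0138% for GPATCH8 loss in K700E. They were 0.0295% and 0.0% for the tests of whether K700E changed the effect of GPATCH8 loss and of SUGP1 loss. Of the 52 events, limma gave an unadjusted p under 0.05 to 1 and 5 for SUGP1 loss in WT and K700E, to 0 and 4 for GPATCH8 loss in WT and K700E, and to 1 and 0 in the tests of difference. In K700E cells the SNORD79 intron of GAS5 was spliced in 67.0 and 63.5% in sgGPATCH8 and 64.5 and 65.5% in sgSUGP1 libraries, against 74.5% in the single sgRenilla library. In WT cells it was spliced in 65.0 and 68.0% in sgGPATCH8 and 65.5 and 63.5% in sgSUGP1 libraries, against 69.5% in the sgRenilla library. The targeting guides lay below the sgRenilla library in each genotype, and the limma adjusted p in K700E was 0.452 for GPATCH8 loss and 0.387 for SUGP1 loss. With 1 sgRenilla library per genotype, these tests assume that it varies like the groups of 2, so they say little about whether the guides had an effect. For the 20 introns the median difference was −2.88 points for GPATCH8 loss in K700E, beside −0.50 for all 3945 retained introns. Of the 20, 19 were below 0, against 2277 of the 3945. For SUGP1 loss in K700E it was also −2.88 points, beside −0.75 for all retained introns. Both K700E medians rest on the same single K700E sgRenilla library. In WT cells the median over the 20 introns was −0.63 points for GPATCH8 loss, beside −0.50 for all retained introns. For SUGP1 loss in WT it was −0.50 points, beside −0.25 for all retained introns.

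The SNHG1 exon between the SNORD27 and SNORD28 introns had the widest range of group means over the K562 panels among the events of SNHG1, at 38.1 points. Inclusion was 47.5 and 51.0% in K700E sgGPATCH8, 59.0 and 60.0% in K700E sgSUGP1 and 49.5% in K700E sgRenilla libraries. In WT cells it was 42.5 and 45.0% in sgGPATCH8, 43.0 and 41.5% in sgSUGP1 and 43.5% in sgRenilla libraries. The average K700E difference of 9.58 points did not pass the test (limma adjusted p = 0.064), nor did the 10 points of SUGP1 loss in K700E (limma adjusted p = 0.397). In the U2AF1 panel the exon was included in 73, 83 and 84% in S34F sgRenilla libraries, against 58, 73 and 76% in WT sgRenilla libraries.

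In 293T, GPATCH8 loss called 0.0673% and SUGP1 loss 0.0428% of all 49019 events, and neither called any of the 53 events of these genes. Limma gave an unadjusted p under 0.05 to 5 of them for GPATCH8 loss and to 1 for SUGP1 loss. The 370 nt GAS5 intron was spliced in 31, 39, 37 and 36% in sgGPATCH8 and 29, 32, 32 and 28% in sgSUGP1 libraries, against 27 and 31% in sgRenilla libraries. The median difference over the 20 introns was 1.38 points for GPATCH8 loss, beside 0.0 for all retained introns. For SUGP1 loss it was −0.50 points, beside −1.25 for all retained introns. The SNHG1 exon between the SNORD27 and SNORD28 introns was included in 41, 42, 42 and 42% in sgGPATCH8 and 49, 45, 47 and 49% in sgSUGP1 libraries, against 52% in both sgRenilla libraries. For GPATCH8 loss this was −10.3 points, with no overlap and a limma adjusted p of 0.478.

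The level of an event also differed between panels. The 370 nt GAS5 intron had group means of 60.3 to 82.0% among SRSF2 groups, 54.5 to 65.0% among SF3B1 groups and 29 to 35.8% in 293T. In the U2AF1 panel the group means ran from 67.0 to 69.3%, between the 2 levels of its libraries. The order among panels is a description, since the tables were made separately and each panel carries its own cells and runs. The SNHG8 exon was included in 11.3 to 23.3% among SRSF2 groups, 13.8 to 19.5% among SF3B1 groups and 5 to 7% in 293T libraries.

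**Figure D5:**
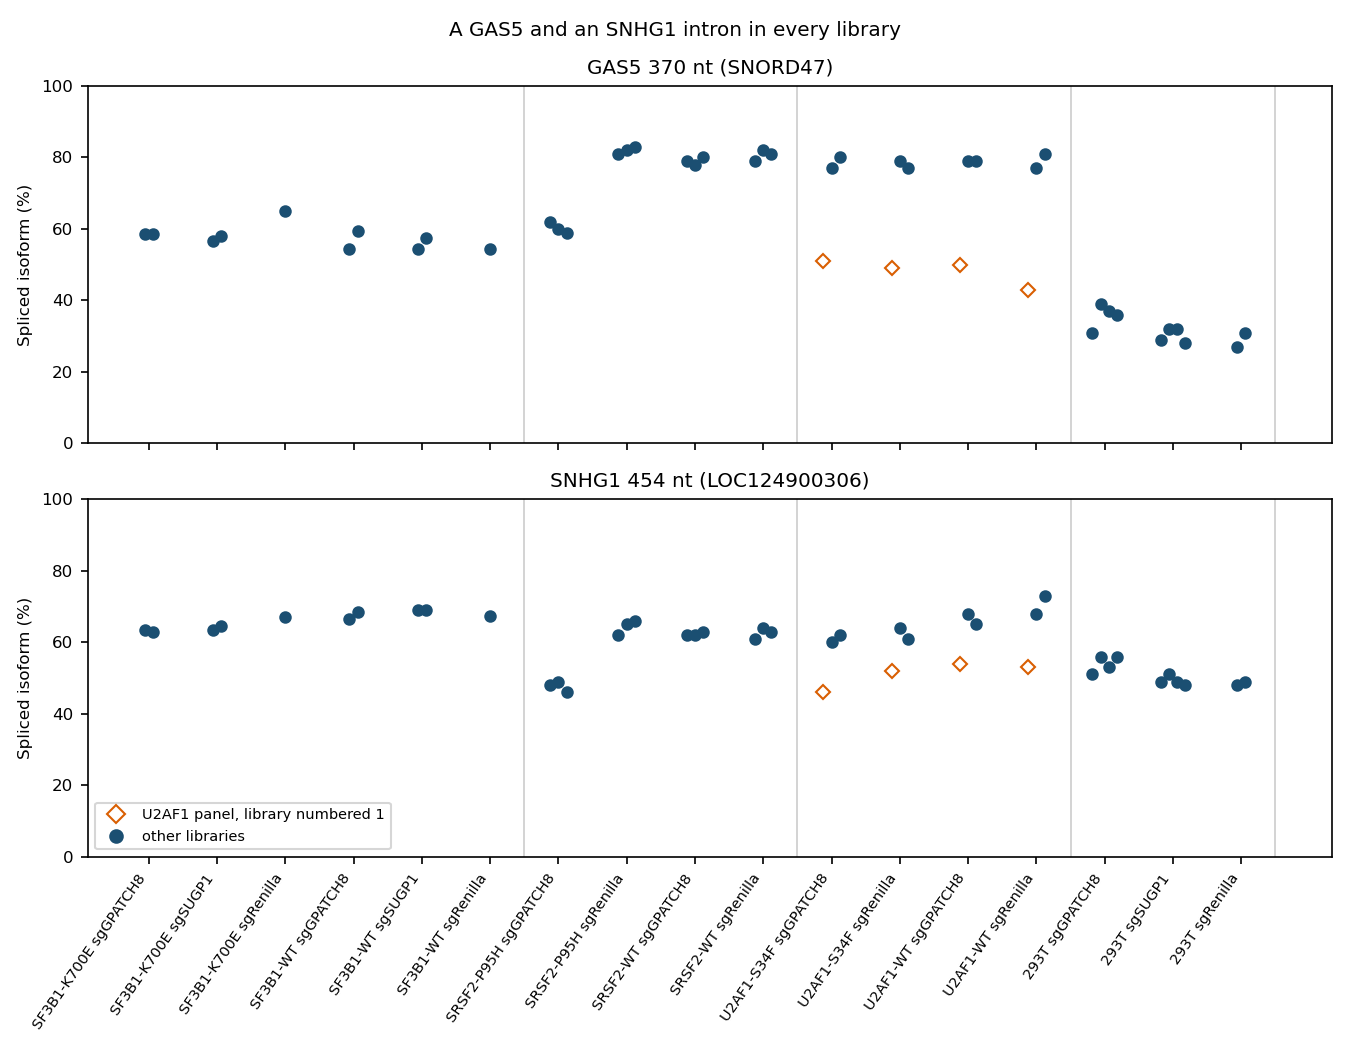
Spliced share (%, vertical axis) of the 370 nt GAS5 intron (the form that skips an exon) and the 454 nt SNHG1 intron in every library, by group; open diamonds are U2AF1 libraries numbered 1. For the GAS5 intron the P95H sgGPATCH8 libraries are at 59 to 62%, the U2AF1 libraries numbered 1 at 43 to 51%, and the remaining SRSF2 and U2AF1 libraries at 77 to 83%.

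The remaining events named here were called in no comparison. In SNHG5, host of SNORD50B, the choice of the nearer donor for the intron at hg19 chr6:86387211-86387512 (minus strand) had the widest range of K562 group means in that gene, 8.0 points, and was used in 87, 88 and 88% in P95H sgGPATCH8 libraries, against 91, 91 and 92% in WT sgGPATCH8 libraries (limma adjusted p = 0.0939). The ZFAS1 exon downstream of the 787 nt intron had the lowest adjusted p of that gene, 0.0759 for K700E against WT, at a difference of 1.75 points. In SNHG12, the inner donor of the SNORA61 intron was used in 59, 45 and 54% in P95H sgRenilla libraries, against 76, 74 and 67% in WT sgRenilla libraries. These groups did not overlap, at −19.7 points, and the limma adjusted p was 0.127. The 443 nt form of the SNORA44 intron, from the inner donor, had K562 group means between 29 and 58.3%.

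The same comparison was read in lists of related genes. Of 19 other noncoding hosts, 13 had tested events in the SRSF2 panel, and GPATCH8 loss in P95H called 2 of 42 events, 1 in each direction, against 4.84% of all events. In SNHG7 a retained intron was spliced in 45.7 ± 0.6% in P95H sgGPATCH8 libraries, against 58.7 ± 1.2% in P95H sgRenilla libraries (SD, n = 3 each; −13.0 points, limma adjusted p = 0.0108). In SNHG17 an exon was included in 29.3 ± 1.5% in P95H sgGPATCH8 libraries, against 17 ± 3.5% in P95H sgRenilla libraries (SD, n = 3 each; limma adjusted p = 0.0371). Of 50 protein-coding hosts, 35 were tested, with 3 events higher and 4 lower of 172, against the same 4.84% of all events. None of their 26 retained introns was called in this comparison, where 4.83% of all retained introns were called with less splicing. The median difference over these 26 introns was −0.33 points, beside −0.67 for all retained introns. The lowest adjusted p was in NOP56, a core protein of box C/D snoRNPs, where the nearer donor of 1 intron was used in 58.0 ± 2.0% in P95H sgGPATCH8 libraries, against 27.7 ± 1.5% in P95H sgRenilla libraries (SD, n = 3 each; 30.3 points, limma adjusted p = 0.000108). This NOP56 event also passed the test of a difference between P95H and WT (25.3 points, limma adjusted p = 0.0319). In the other SRSF2 comparisons, 1 of the 42 events of the noncoding hosts was called, an exon of SNHG4 that was lower in P95H than in WT with sgGPATCH8, where 4.07% of all events were called. None was called by limma in the other 3, where the unadjusted p was under 0.05 in 10 events for P95H against WT with sgRenilla, in 6 for GPATCH8 loss in WT and in 11 for the interaction. Of the 172 events of the protein-coding hosts, P95H against WT called 3 with sgRenilla (1.08% of all events) and 10 with sgGPATCH8 (4.07%), GPATCH8 loss in WT called 1 (0.492%), in NAP1L4, and the interaction called 1 (0.0615%), in NOP56. The 3 with sgRenilla included introns of 2 ribosomal protein genes, both spliced more. The RPL10 intron was spliced in 75.3 ± 0.6% in P95H sgRenilla libraries, against 54.0 ± 1.0% in WT sgRenilla libraries (SD, n = 3 each; 21.3 points, limma adjusted p = 0.00556). The RPL17 intron was spliced in 86.0 ± 1.0% in P95H sgRenilla libraries, against 76.0 ± 1.0% in WT sgRenilla libraries (SD, n = 3 each; limma adjusted p = 0.0197). Both were also called higher in P95H than in WT with sgGPATCH8.

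Outside the SRSF2 panel, K700E against WT called 3.35% of all events. It called none of the 40 tested in the noncoding hosts and none of the 183 tested in the protein-coding hosts. The protein-coding hosts had 1 event of 161 called, for S34F against WT with sgGPATCH8, where 0.023% of all events were called.

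Events elsewhere in the transcriptome with a like pattern were sought by Pearson correlation over the 14 K562 group means, among 28301 events that ranged over at least 10 points. The points share panels, so differences between panels weigh in the likeness. For the 370 nt GAS5 intron the closest were exons of TRPT1 (r = 0.963), ZNG1B (r = 0.961) and POP4 (r = 0.956). For the SNHG1 exon they were exons of METTL26 (r = 0.958) and RFESD (r = 0.949) and an exon on chromosome X with no assigned name (r = 0.948). For the SNHG16 exon they were exons of TPD52L2 (r = 0.939) and RBM39 (r = 0.938) and an ACADVL intron (r = 0.937). For the SNHG8 exon the closest were a CD46 exon (r = 0.894), a JKAMP acceptor (r = 0.885) and a KIF23 exon (r = 0.881). The inner SNORA61 donor of SNHG12 was closest to exons of PDXK (r = 0.949) and SRPK2 (r = 0.942), with an exon of ENSG00000250501 next (r = 0.936). The ZFAS1 exon was closest to exons of CDK10 (r = 0.93), BCOR (r = 0.917) and ITGB3BP (r = 0.901). The SNHG5 donor had weaker matches, a WHAMM exon (r = 0.909), an MSS51 acceptor (r = 0.868) and a CLCN6 exon (r = 0.861).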

How the data were processed

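Poly(A)-selected, strand-specific RNA-seq was processed by the authors; RSEM 1.2.4, Bowtie, TopHat, TopHat2 2.0.8b and hg19 (GRCh37) are named in the submitters' processing notes, with no role given. The deposited values are a fraction (0 to 1, 2 decimals) per splicing event, the share of the isoform listed first, in 54 columns. The 2 runs of each SF3B1 library were averaged, which gave 44 libraries of the 55 samples listed, 10 to 12 per panel. One SRSF2 P95H sgGPATCH8 replicate is listed as 2 samples with 1 column. Another 2 events without coordinates were left out. The reads behind a fraction are unknown, so no counting interval is given.

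Fractions were tested with limma 3.58.1 in R 4.3.3 (group means, trended prior variance, offset 0.01), separately for each panel, with 293T guides weighted equally. The limma step was tested on simulated data with 200 shifted events, for 1 comparison per panel. It called 54.5% of them in SF3B1, 58.0% in SRSF2, 42.5% in U2AF1 and 29.0% in 293T. An event that was not called may therefore still have moved, most of all in 293T. Text names every event of the 7 genes called in any comparison, and per gene the tested event with the widest range of K562 group means, the retained intron with the widest range and the event of lowest adjusted p. The 7 genes, the lists of other host genes, and the tests were chosen with earlier results of these data known. Alternatives covered the offset, limits on group means, missing values, the prior, the usage scale, single runs and guides, left-out libraries and a replicate block. GENCODE 29 named 102610 of 110816 events by matching junction lengths. Sequences come from GENCODE 29 transcripts (GRCh38). Results of a list of decay factors are not reported here.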

Additional observations from a re-analysis of the deposited data

Results flagged for a closer look

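In all, 9 values were flagged as apart from the 3 other libraries of their 293T group (gap to the nearest over the group's range above 0.829), out of 62 groups of 4 examined. For values that are not rounded, chance gives about 1 such value in 20 groups. Among sgGPATCH8 libraries these were the SNHG1 SNORD22 intron at 70.0%, the GAS5 SNORD47 intron at 82.0%, the GAS5 SNORD79 intron at 57.0%, the SNHG1 exon between SNORD27 and SNORD28 at 41.0%, the SNHG8 exon at 6% and the ZFAS1 exon after the 787 nt intron at 2%. Among sgSUGP1 libraries they were the GAS5 SNORD80 intron at 67.0%, the SNHG16 exon after 516 nt at 5% and the same ZFAS1 exon at 2%. In all 9 the other 3 libraries had the same rounded value, so a step of 1 or 2 points set the value apart. The chance rate does not hold for such ties, so the count of flagged values cannot be set against it.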

How the results depend on the processing

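For GPATCH8 loss in SRSF2 P95H cells, every alternative kept the count of called events within 1.5 times of 22, with 17 to 21 when 1 library was left out and 19 with the replicate block. P95H against WT with sgGPATCH8 gave 8 with the replicate block and 3 to 7 with 1 library left out. P95H against WT with sgRenilla gave 1 with missing values allowed, 0 with the block and 0 to 0 with 1 library left out. GPATCH8 loss in WT SRSF2 gave 1 with missing values allowed, without a trend in the prior variance, with the block, and with any 1 library left out. K700E against WT gave 2 without limits on group means, and 0 with missing values allowed, with the block, in run 1 alone, in run 2 alone and with any 1 library left out. SUGP1 loss in K700E gave 1 in run 2 alone. The test of P95H and GPATCH8 loss together gave 9 without limits on group means and 1 with offset 0.05 or on the usage scale. The cause was not tested. Of 583 alternative values for single events, 446 stayed on their side of the threshold, 137 no longer passed it and none changed sign. The single sgRenilla library of each SF3B1 genotype could not be left out.

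Whether equal replicate numbers pair libraries was checked by correlating deviations from group means: 0.01 to 0.018 in SF3B1, −0.048 to 0.033 in SRSF2, 0.075 to 0.402 in U2AF1 and −0.025 to 0.012 in 293T for equal numbers. In SF3B1, SRSF2 and 293T no pair passed 0.1, so equal numbers there did not mark libraries that deviate together. In SF3B1 an equal number within a targeted gene also means the same guide. With 2 libraries per fitted group in SF3B1 and 293T, the deviations mirror each other, so few of these correlations are distinct. In U2AF1 the libraries numbered 1 deviated together (0.243 to 0.402 among themselves, −0.242 to −0.128 with those numbered 2 or 3), so there the number 1 marks a set of libraries. Those numbered 2 and 3 did not separate from each other (0.075 to 0.158 for equal and 0.072 to 0.13 for unequal numbers). With the replicate block, no event of these genes was called in the U2AF1 or 293T panels. It gave 0 in place of 1701 calls over all events for K700E against WT, 87 in place of 475 for P95H with sgRenilla, 1107 in place of 1786 with sgGPATCH8, and 120 in place of 216 for GPATCH8 loss in WT SRSF2. The block adds terms to models of few libraries, most of all in SF3B1. Fewer calls with it therefore do not tell whether libraries are paired. Over all events, other settings also moved counts by more than 1.5 times. K700E against WT gave 117 with the first run by itself and 277 with the second, while P95H against WT with sgRenilla gave 308 with missing values allowed. SUGP1 loss in K700E, with 48 calls, ranged from 0 in run 1 alone to 1121 in run 2 alone. The test of P95H and GPATCH8 loss together, with 27 calls, ranged from 5 with the block to 244 without limits on group means. In 293T, GPATCH8 loss, with 33 calls, and SUGP1 loss, with 21, gave 0 with a single guide and 108 and 84 without limits on group means. The fractions carry no depth and are rounded to 1 point, which limits events near 0 or 100%.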
